A study of Mus musculus with 4 samples.

Results

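Broad open regions were examined, defined as the regions of a deposited list of accessible chromatin that spanned at least 3000 bp. They were selected on their measured width, after records with the same bounds had been joined, on chromosomes 1 to 19 and outside a 100 kb stretch of chromosome 1 near 88 Mb. There were 1739 of them among 111247 regions on these chromosomes (1.56%, 95% Wilson interval 1.49 to 1.64) and 113404 in the whole list. ATAC-seq, which uses a transposase (Tn5) to cut and tag accessible DNA, was run on bulk nuclei in 4 libraries of organoids grown from the mouse colonic epithelium. The genotype of all organoids is given as WT, and all libraries carry the same batch label. The 4 groups were organoids from mice with colitis kept in 0.1% DMSO, the vehicle, for 24 h, organoids from mice with colitis kept in 10 µM T-5224, an inhibitor of the AP-1 transcription factor, for 24 h, and control organoids under each of the same conditions. Each group had 1 library. All were grown with Wnt, R-spondin, Noggin and EGF, which hold colonic cultures in a stem and progenitor state, and were frozen and thawed before nuclei were taken. The age of the mice and whether animals were pooled are not given in the labels. The list holds 1 value per summit for the series and none for a single library, so no group was compared with another, no test was made and the spread between cultures is not known. The sources used here do not say which of the 4 libraries were used to call the regions.

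In most of the genome DNA is wrapped in nucleosomes, and Tn5 reaches mainly the short nucleosome-free stretches at active promoters and enhancers. Long accessible stretches are known from clusters of enhancers around genes that define a cell's identity and from the bodies of very strongly transcribed genes, where passing polymerases disturb nucleosomes. AP-1 is a family of dimers of Fos, Jun, Atf and Maf proteins that binds the sequence TGANTCA at enhancers, and many of its own genes are immediate early genes, induced within minutes of growth factor or stress signals.

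Promoter sequences are shown for the gene of the widest region at its end in each of 5 gene groups, to show what kind of start site lies in these stretches: Atf3 (a stress-induced AP-1 partner), Klf6 (an immediate early zinc-finger factor), Tnfaip3 (the deubiquitinase A20, a feedback inhibitor of NF-kB), Tcf7l2 (a transcription factor of the Wnt pathway) and Krt8 (a keratin of simple epithelium). The starts of Tnfaip3 and Krt8 lay in separate broad regions of 5139 and 6484 bp beside the widest ones. Each runs 5′ to 3′ from 250 bases before to 50 bases after the gene's annotated start, from RefSeq on GRCm38.p6, and capitals mark matches to the motifs TGANTCA, the AP-1 site, TGACGTCA, the cAMP response element or CRE, GGGCGG, known as the GC box, TATAAA, a core promoter element, the CCAAT box and the CArG box, on either strand. Where matches to 1 motif on the same strand overlapped, only 1 of them was marked and counted. Klf5, the widest among the intestinal factors, is named only.
Atf3 promoter (chr1:191183284-191183583, minus strand): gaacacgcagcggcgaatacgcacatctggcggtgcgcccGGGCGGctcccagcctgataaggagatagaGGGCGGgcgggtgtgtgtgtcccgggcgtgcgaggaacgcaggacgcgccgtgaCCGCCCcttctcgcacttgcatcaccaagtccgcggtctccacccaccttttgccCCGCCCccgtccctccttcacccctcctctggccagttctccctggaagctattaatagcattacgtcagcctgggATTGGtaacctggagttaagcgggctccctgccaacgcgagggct
Klf6 promoter (chr13:5861239-5861538, plus strand): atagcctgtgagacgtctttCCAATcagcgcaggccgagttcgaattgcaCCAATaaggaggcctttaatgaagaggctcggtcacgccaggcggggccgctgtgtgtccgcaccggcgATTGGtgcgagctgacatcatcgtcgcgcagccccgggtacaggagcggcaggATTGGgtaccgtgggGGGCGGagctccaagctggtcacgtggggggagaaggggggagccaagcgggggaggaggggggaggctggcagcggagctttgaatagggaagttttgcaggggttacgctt
Tnfaip3 promoter (chr10:19015361-19015660, minus strand): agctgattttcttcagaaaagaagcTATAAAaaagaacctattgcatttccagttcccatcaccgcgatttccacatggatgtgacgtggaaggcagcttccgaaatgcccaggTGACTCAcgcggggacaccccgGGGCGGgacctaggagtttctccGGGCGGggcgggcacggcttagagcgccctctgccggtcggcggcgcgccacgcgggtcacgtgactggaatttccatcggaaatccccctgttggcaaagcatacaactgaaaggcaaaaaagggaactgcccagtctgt
Tcf7l2 promoter (chr19:55741560-55741859, plus strand): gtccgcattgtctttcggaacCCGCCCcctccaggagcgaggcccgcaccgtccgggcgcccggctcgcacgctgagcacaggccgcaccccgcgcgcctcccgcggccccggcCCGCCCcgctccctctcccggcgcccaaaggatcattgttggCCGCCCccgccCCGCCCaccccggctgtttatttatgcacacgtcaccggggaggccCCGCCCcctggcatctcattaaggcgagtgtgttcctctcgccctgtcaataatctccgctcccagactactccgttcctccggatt
Krt8 promoter (chr15:102004293-102004592, minus strand): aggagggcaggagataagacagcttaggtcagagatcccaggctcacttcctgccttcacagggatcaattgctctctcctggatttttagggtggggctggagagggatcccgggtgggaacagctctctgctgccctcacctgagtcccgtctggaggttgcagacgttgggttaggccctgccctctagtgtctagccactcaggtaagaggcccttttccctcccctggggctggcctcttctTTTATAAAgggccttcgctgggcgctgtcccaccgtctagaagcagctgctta
The start sites of Atf3 and Tcf7l2 carried 4 and 5 non-overlapping GC boxes and no TATAAA. At Atf3, Tcf7l2 and Tnfaip3 a further GC box overlaps a marked one and was left in lower case. Klf6 had 4 CCAAT boxes and 1 GC box. Tnfaip3 was the only 1 of these 5 with an AP-1 site, at -136 from the start site, with 2 non-overlapping GC boxes and a TATAAA at -225. Krt8 had no GC box and overlapping TATAAA matches on both strands at its annotated start. These are matches of letters and not measured binding sites.

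Of 1136 annotated miRNA genes, 34 (2.99%, 95% Wilson interval 2.15 to 4.15) lay wholly inside a broad region, and 201 (17.7%) touched a region of any width. The mature sequences below were chosen after the values were seen, because they are the miRNAs of these stretches best known from epithelium. They come from RefSeq on GRCm38.p6, 5′ to 3′, with the seed (bases 2 to 8, which pair with target mRNAs) in capitals.
miR-200b-3p (chr4:156055685-156055706, minus strand): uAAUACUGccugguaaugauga
miR-429-3p (chr4:156053916-156053937, minus strand): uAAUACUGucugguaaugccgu
miR-200c-3p (chr6:124718324-124718346, minus strand): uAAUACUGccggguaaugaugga
miR-200a-3p (chr4:156054911-156054932, minus strand): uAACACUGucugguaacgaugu
miR-141-3p (chr6:124717917-124717938, minus strand): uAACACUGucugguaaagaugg
miR-192-5p (chr19:6264857-6264877, plus strand): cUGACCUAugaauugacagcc
miR-194-5p (chr19:6264658-6264679, plus strand): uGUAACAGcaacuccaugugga
miR-21a-5p (chr11:86584120-86584141, minus strand): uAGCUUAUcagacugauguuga
miR-22-3p (chr11:75463772-75463793, plus strand): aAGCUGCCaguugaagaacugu
The first 3 share the seed AAUACUG and the next 2 share AACACUG. These 5 make up the miR-200 family, which holds cells in the epithelial state by repressing Zeb1 and Zeb2. The miR-200b, miR-200a and miR-429 genes lay in 1 region of 4351 bp with 7 summits (chr4:156053150-156057500), where the strongest fold was 18.7 and no protein-coding gene was overlapped. The miR-200c and miR-141 genes lay in a region of 5119 bp with 9 summits (chr6:124716622-124721740), where the strongest fold was 27.7. Both genomic clusters of the family were thus inside broad regions. The miR-192 and miR-194-2 genes, abundant in intestinal epithelium, shared a region of 4579 bp with a strongest fold of 32.2. The miR-22 gene lay in a region of 4106 bp with a strongest fold of 72.2. The miR-21a gene lay at the 3′ end of Vmp1 in a region of 15749 bp with 22 summits.

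The broad regions were 1.56% of regions, 9.23% of the called sequence (7.49 Mb) and 7.6% of the summits (11787). Their widths had a median of 3701 bp, quartiles of 3274 and 4552 bp and a maximum of 36679 bp. Of the 1739, 34 spanned 10000 bp or more and 5 spanned 20 kb or more. Most were thus only a little wider than the threshold. The regions just inside it, at ends of Sf3b1, Arid4b with Ggps1, and Tmco6, spanned 3000 bp with strongest folds of 45.4, 75.9 and 41.2. Those just outside it, at Afdn with Tcte2, Gabbr1, and Nipal3 with Stpg1, were 1 bp narrower, with strongest folds of 30.7, 13.1 and 50.4. The share of regions that were broad was 1.57% ± 0.272 (SD over 19 chromosomes) and ran from 1.16% on chromosome 13 to 2.16% on chromosome 19.

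A broad region was a row of summits rather than 1 wide peak. It held a median of 6 summits (quartiles 5 and 7, range 2 to 65). The commonest number was 5, in 373 regions, while 6 regions had only 2 and 28 had 20 or more. Summits lay 1 per 649 bp in the median broad region, 1 per 699 bp in the 4232 regions of 2 to 3 kb and 1 per 430 bp in the 105276 regions under 2000 bp. These values are width over number of summits. Only 17.3% of regions under 2000 bp had 2 or more summits, so their 430 bp is mostly the width of regions with 1 summit. A wider region has room for more summits, so the count itself follows from the rule.

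The authors' fold enrichment at a summit is its pileup over a single genome-wide background, and the strongest fold of a broad region had a median of 38.1 (quartiles 27.3 and 50.8). It was 32.7 for regions of 2 to 3 kb and 4.75 for those under 2000 bp. Within a broad region the summits were unequal. The strongest fold was a median of 9.57 times the weakest, against 6.15 times in regions of 2 to 3 kb. The weakest summit of a broad region had a median fold of 3.48, close to the 4.06 of regions under 2000 bp. A region with more summits has more chances of a high and a low one, so this ratio partly follows from the number of summits. Among the broad regions the median strongest fold was higher in each wider class: 36.6 at 3 to 4 kb, 38.7 at 4 to 5 kb, 41.4 at 5 to 7.5 kb, 48.8 at 7.5 to 10 kb and 54.7 at 10 kb or more. The quartiles of the narrowest class, 26.2 and 49.2, and of the widest, 36.6 and 69.5, overlapped. The highest single folds were nevertheless in regions well below 10 kb, as the plot of width against strongest fold shows.

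**Figure D1:**
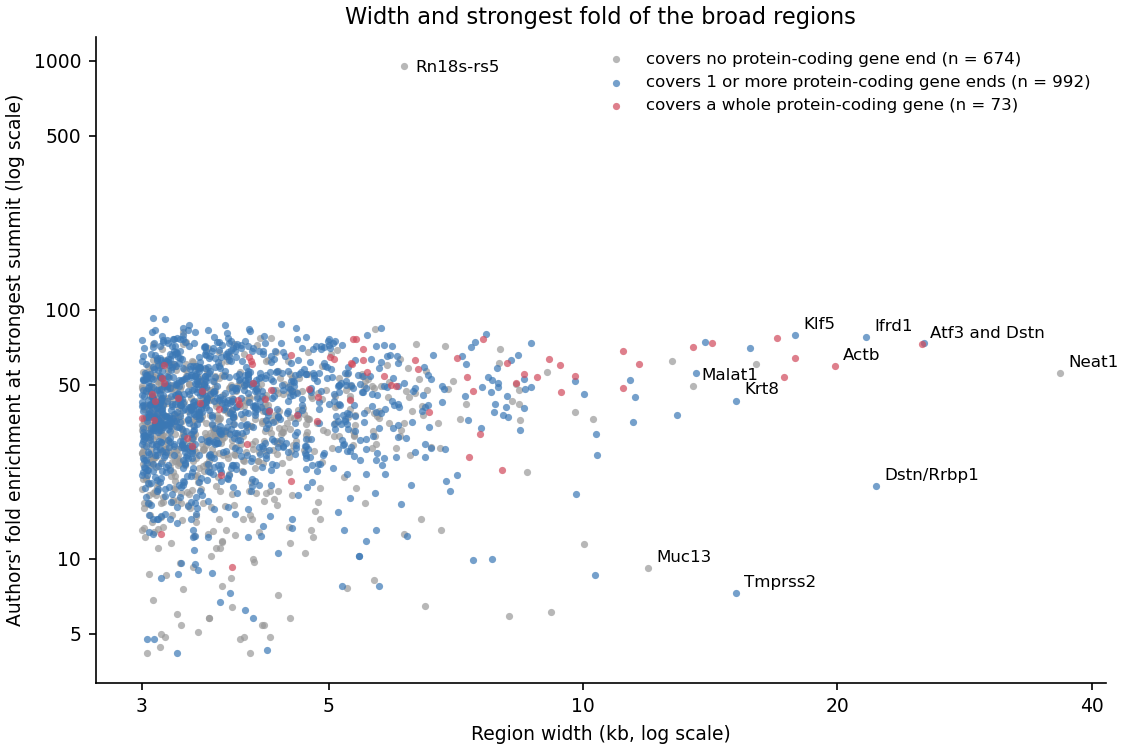
Width (x axis, kb, log scale) and authors' fold enrichment at the strongest summit (y axis, log scale) of the 1739 broad regions, 1 point each, coloured by whether the region covers no protein-coding gene end (674), at least 1 end (992) or a whole gene (73). Most points lie below 5 kb and between 10-fold and 100-fold, the 36.7 kb region at Neat1 is the widest, and the region at Rn18s-rs5 stands alone at 950-fold.

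Broad regions lay at genes. The strongest summit was a median of 1063 bp from the nearest outer end of a protein-coding gene (quartiles 119 and 8482 bp), and an outer end means either bound of the annotated gene. It was within 1000 bp of an end in 859 of 1739 (49.4%, 95% Wilson interval 47.1 to 51.7). This share was 51.9% for regions of 2 to 3 kb and 11.6% for regions under 2000 bp. When the ends were moved by 50000 bp, the shares were 8.45%, 7.11% and 5.55%. Summits close to gene ends were therefore as frequent in the next narrower class as in the broad one. Another 581 broad regions (33.4%) had their strongest summit inside a gene and away from its ends, and 299 (17.2%) had it between genes. Wilson intervals cover counting error only, and regions of 1 list are not independent samples.

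The covered sequence, by contrast, took in more of each gene as width rose, which greater length alone favours. At least 1 protein-coding gene end was inside 1065 of the broad regions (61.2%, 95% Wilson interval 58.9 to 63.5), against 53.4% of regions of 2 to 3 kb and 7.47% of those under 2000 bp. Of the 20661 protein-coding genes, 1255 (6.07%) had an end in a broad region and 11844 (57.3%) had one in a region of any width. A broad region covered 1 end in 816 cases, 2 in 210, 3 in 28 and 4 or more in 11. From regions of 3 to 4 kb (1067) to those of 10000 bp or more (34), the share covering an end was 58.9% (55.9 to 61.8) and 79.4% (63.2 to 89.7). The share with the strongest summit within 1000 bp of an end was 50.2% (47.2 to 53.2) and 44.1% (28.9 to 60.5) in the same classes, with overlapping intervals.

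**Figure D2:**
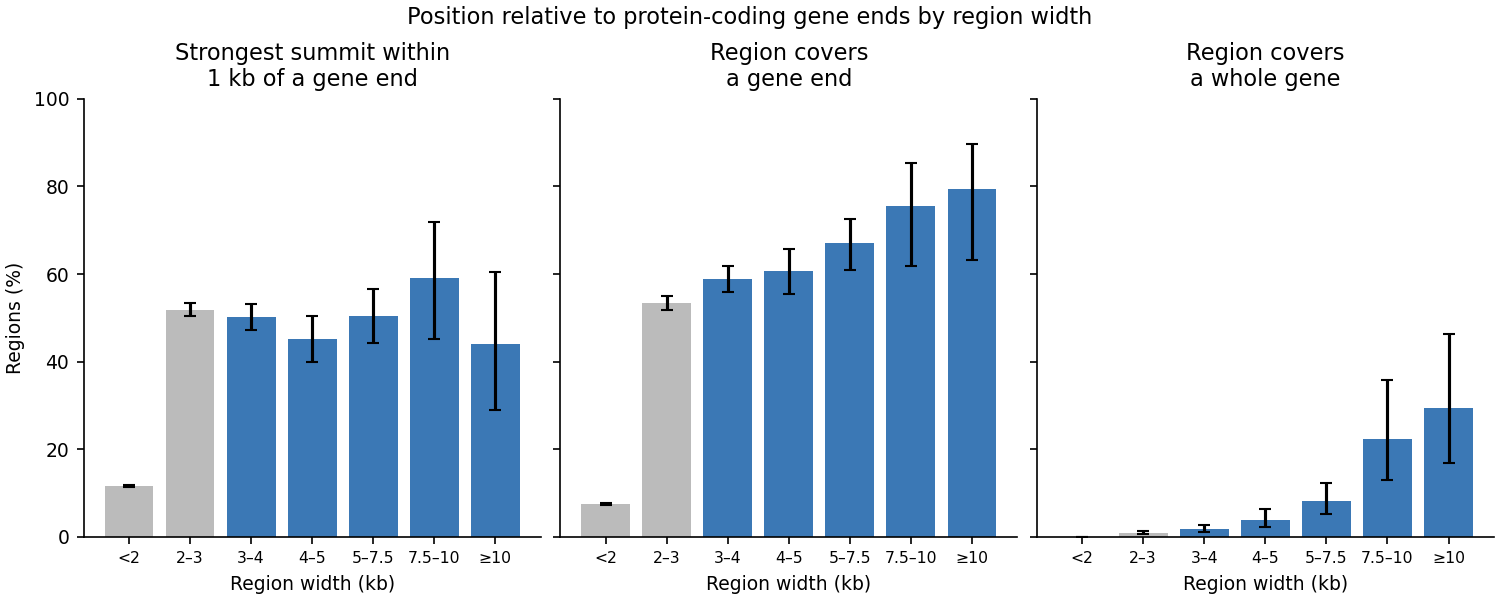
Share of regions (y axis, percent) by region width (x axis, kb) whose strongest summit is within 1 kb of a protein-coding gene end, that cover an end, or that cover a whole gene; bars are shares, error bars 95% Wilson intervals, blue marks the broad regions. Coverage of an end goes from 58.9% at 3 to 4 kb to 79.4% at 10 kb or more and coverage of a whole gene from 1.78% to 29.4%, while the share with a summit near an end stays between 44.1% and 59.2%.

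The covered ends were mostly starts, and broad regions leaned into the gene. Of the 1115 covered ends whose strand was known, 930 (83.4%, 81.1 to 85.5) were 5′ ends, against 93% in regions of 2 to 3 kb and 89.3% in those under 2000 bp. Genes with only their 5′ end covered numbered 833, those with only the 3′ end 88 and those with both 97. In the 813 broad regions with the start of exactly 1 gene, the region reached a median of 1377 bp upstream (quartiles 907 and 2003) and 2384 bp downstream (1804 and 3199). It reached farther downstream in 595 (73.2%, 70 to 76.1), a share of 71.2% in the 2 to 3 kb class and of 69.2% in the narrower one. The lean into the gene was therefore shared by all 3 width classes. The strongest summit stayed at the start, at a median of -64 bp, and lay within 250 bp of it in 492 of 813 (60.5%, 57.1 to 63.8) against 77.3% and 90.2%.

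**Figure D3:**
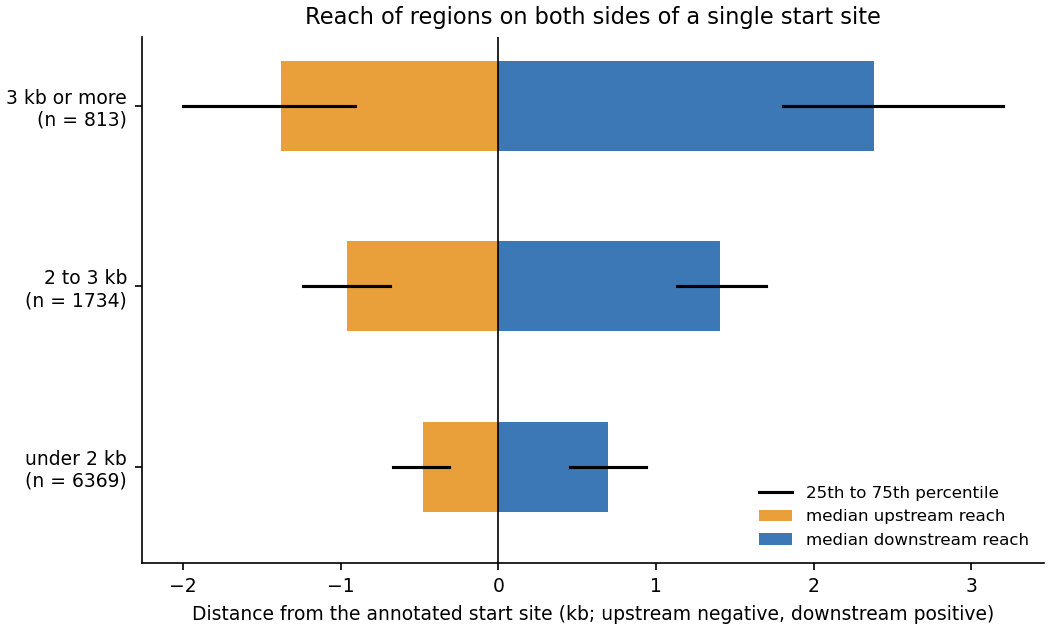
Median reach (bars, kb) of regions upstream (orange, negative) and downstream (blue) of the annotated start, for regions that hold the start of exactly 1 protein-coding gene, in 3 width classes; black lines run from the 25th to the 75th percentile. The broad regions reach 1377 bp upstream and 2384 bp downstream in the median, and the downstream side is the longer one in each class.

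The starts in broad regions were rich in CpG. The promoter table holds several starts for some genes and some starts that are not outer ends, and 1 start was used per gene. The 981 start sites inside a broad region had a median of 65.3% G and C and an observed over expected CpG ratio of 0.813. In regions of 2 to 3 kb the values were 65% and 0.845, in narrower regions 60.3% and 0.75, and outside any region 47.7% and 0.202. The GC box was in 75.6% (72.9 to 78.2) of promoters in broad regions and in 47.3% of all 16456 promoters of the table. The AP-1 site was in 5.1% (3.89 to 6.66) of them and in 7.12% of all promoters. TATAAA was in 6.83% and 13.5%, CCAAT in 37.4% and 39.1%, and CRE in 2.45% and 2.4%. The CArG box, which serum response factor binds, was in 2.24% (1.49 to 3.37) and 1.45%. In regions of 2 to 3 kb the GC box was in 75.8% of promoters, the AP-1 site in 4.79% and TATAAA in 5.41%. The same shares were 63.9%, 4.97% and 7.42% in narrower regions, and 16.2%, 10.4% and 23.7% outside any region. Base composition was thus close to that of the next narrower class and unlike that of promoters outside any region.

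Some short genes were open from end to end. A broad region covered 84 whole protein-coding genes (0.407% of 20661) in 73 regions (4.2%, 3.35 to 5.25), against 0.898% of the regions of 2 to 3 kb. These genes had a median length of 1806 bp, against 17491 bp over all protein-coding genes, and the longest was Atf3 at 13038 bp. Short length makes full coverage easier. By the gene lists, 6 of 14 AP-1 genes (Fos, Fosb, Jun, Junb, Jund and Atf3), 7 of 16 other immediate early genes and 3 of 18 junction genes (the claudins Cldn3, Cldn4 and Cldn7) were covered whole. The feedback list had 1 such gene (the phosphatase gene Dusp1), the colonocyte list 1 (the keratin Krt18), the fetal-like list 2 (Hbegf and S100a6) and the ubiquitously used list 1 (Actb). The other lists had none, and most of the 84 genes are in no list. Histone genes, whose products package DNA, gave the region with the most gene ends. The region chr13:23570385-23576392 spanned 6008 bp and covered 10 ends of 5 genes (H2ac7, H2ac8, H2bc7, H2bc8 and H3c4). Of 67 histone genes, 58 had an end in a region of any width, beside 57.3% of all protein-coding genes. In a broad region 11 had one, beside 6.07%, and 10 were covered whole, beside 0.407%. Reads shared between near-identical histone copies could not be followed here. The other 4 regions with most ends covered 6 each at H2ac13 and at Anapc2 with Grin1, and 5 each at H4c1 and at Hcfc1r1 with Tnfrsf12a.

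The 10 widest regions spanned 16955 to 36679 bp, and 5 of them covered a whole protein-coding gene. The widest was 36679 bp over Neat1, the long noncoding RNA that builds paraspeckles (chr19:5814193-5850871), with 65 summits and a strongest fold of 55.5. Its neighbour Malat1, an abundant nuclear RNA, had 13488 bp with 26 summits. A pair of regions of 25308 and 22244 bp, with 43 and 45 summits, were 101 bp apart and together covered 99.6% of Dstn, which encodes an actin-depolymerising factor. They went on 15615 bp past its 3′ end into Rrbp1. The third widest, 25158 bp with 46 summits, held Atf3 and Fam71a (chr1:191162064-191187221). It began 3888 bp before Atf3 and ended 8231 bp after it. The others of the 10 widest lay at Ifrd1 (21640 bp), a regulator of growth and differentiation genes, at Actb (19855 bp), cytoplasmic actin, at Klf5 and at Yif1b with 2200002D01Rik (17793 bp each), at Hbegf (17308 bp), an EGF receptor ligand, and at Klf6 (16955 bp). Of these 10 regions, 9 had strongest folds between 53.8 and 79.3, and the one over the Dstn 3′ end and Rrbp1 had 19.6.

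At Atf3, Ifrd1 and Muc13 the tallest summit stood at the start and lower ones covered the body. At Atf3 the summit nearest the start reached 72.5-fold, 25 summits inside the gene had a median of 7.77-fold and 17 past its 3′ end had 9.16-fold. At Ifrd1 the start reached 77.7-fold, and 43 summits in the body had a median of 4.75-fold (2.67 to 7.3). At Muc13, a cell-surface mucin of the gut, 55 body summits had a median of 5.45-fold, below the 33.7-fold of its start, and 4 broad regions together covered 95.7% of the 25893 bp gene. In these genes the median body summit was thus 4.75 to 7.77 times the background, with single ones up to 13.3-fold at Atf3. Among the 13320 protein-coding genes of 10 kb or more, 23 were covered over at least 50% of their length and 7 over at least 80%. These 7 were Atf3, Hbegf, Ifrd1, Dstn, Tnfaip3, Muc13 and Klf5. Vmp1 differed in layout: its broad regions began 78252 bp into the gene. The tallest summit within them, 69.9-fold, lay near its 3′ end, 3096 bp from the miR-21a hairpin. Narrower regions of Vmp1, such as any at its start, were not examined here.

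**Figure D4:**
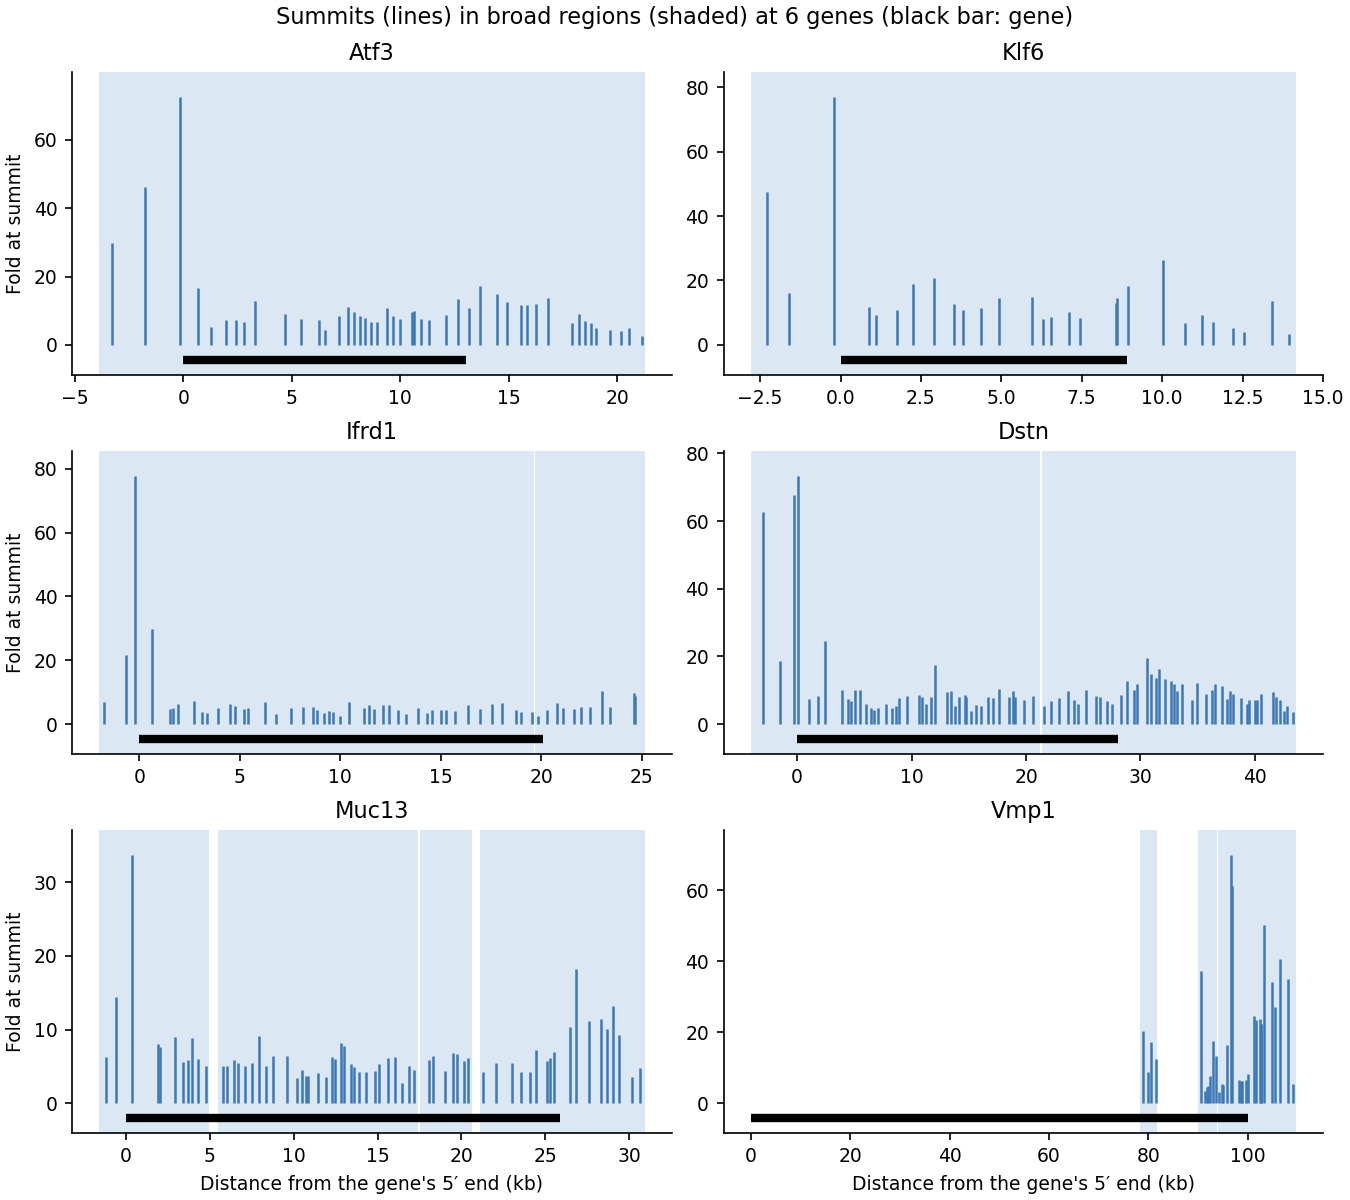
Fold at each summit (vertical lines, linear scale) against distance from the gene's 5′ end (kb) in the broad regions (shaded) at Atf3, Klf6, Ifrd1, Dstn, Muc13 and Vmp1; the black bar is the gene. In the first 5 the tallest summit is near the start (33.7-fold at Muc13 to 77.7-fold at Ifrd1) and lower summits run past the 3′ end. At Vmp1 the summits of the broad regions cluster at the 3′ end. Summits of narrower regions are not drawn.

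Several genes met more than 1 broad region. Broad regions overlapped 1566 protein-coding genes (7.58%), of which 1410 met 1, 117 met 2, 27 met 3, 8 met 4 and 4 met 5 or more. Among these were Ezr (8 regions, 71.3% of the gene), Myh9 (5, 26.1%) and Tmprss2 (5, 31.4%). Ezr encodes ezrin, which ties the actin cortex to the membrane, Myh9 encodes a non-muscle myosin of that cortex, and Tmprss2 is a serine protease of the epithelial surface. In 55 cases, neighbouring broad regions were at most 1000 bp apart, and the smallest gap was 41 bp. The pair at Dstn is among them.

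Of the AP-1 genes, 8 of 14 (57.1%) had an end in a broad region, beside 6.07% of all protein-coding genes, and 12 (85.7%) had one in a region of any width, beside 57.3%. The median width of the 8 regions was 8222 bp, and over all broad regions that cover an end it was 3751 bp. Fos, the founding partner of Jun, lay whole inside 8513 bp with 13 summits and a strongest fold of 55.4 (exact Poisson 95% interval 50.6 to 60.6). Fosb lay in 11137 bp (17 summits, 48.7-fold), and Fosl2, the Fos relative that lasts longer after induction, had an end in 7930 bp (12 summits, 50.8-fold). All 3 Jun genes were covered whole. Jun lay in 7613 bp (11 summits, 76.2-fold), Junb in 9399 bp (13 summits, 59.9-fold) and Jund in 7090 bp (12 summits, 64-fold). Atf3 had the widest region of the list, and Mafk, a small Maf protein without an activation domain, the narrowest at 3879 bp (7 summits, 54.3-fold). Maff met a region of 3271 bp inside the gene but not at an end. The remaining 5 had no broad region: Fosl1 and Jdp2 lay at regions of 2234 and 2337 bp, Batf2 and Batf3 at regions of 1080 and 1289 bp, and Batf, best known from lymphocytes, had none at an end.

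The other immediate early genes had the largest share of the 18 lists. Of 16, 15 had an end in a region of any width, beside 57.3% of all protein-coding genes. In a broad region 12 had one (75%, 50.5 to 89.8), beside 6.07%, and 7 were covered whole. The widest were Klf6, Zfp36 (14222 bp, 20 summits, 73.5-fold) and Btg2 (11142 bp, 17 summits, 68.2-fold). The region at Zfp36 also covered an end of Plekhg2, and its 73.5-fold summit was nearest to Plekhg2, at 170 bp. The rest were Nr4a1, Egr1, Klf4, Ier2, Ccn1, Myc, Ier3, Ccn2 and Egr3. Nr4a1, an orphan nuclear receptor, was unlike these. Its region of 10313 bp held 22 summits but none above 8.58-fold, and it lay at the 3′ end. Of 14 genes that restrain ERK and JNK, 9 had an end in a broad region, led by the phosphatases Dusp1 (9405 bp, 15 summits, 46.6-fold), Dusp4 (6833 bp, 11, 48.2-fold) and Dusp6 (5857 bp, 9, 65.3-fold). The others were Spry2, Errfi1, Dusp5, Spred1, Spred2 and Spred3. Of 13 NF-kB genes, 4 did: the inhibitors Tnfaip3 (12924 bp, 28, 37.7-fold) and Nfkbia (6488 bp, 15, 28.9-fold), the atypical inhibitor family member Bcl3 (4246 bp, 5, 39.4-fold) and Birc3, a ubiquitin ligase. The 37.7-fold summit lay inside Tnfaip3, while its start, in a separate broad region, reached 46.7-fold. None of the 5 subunit genes Nfkb1, Nfkb2, Rel, Rela and Relb had an end in a broad region, although all 13 had one in some region.

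**Figure D5:**
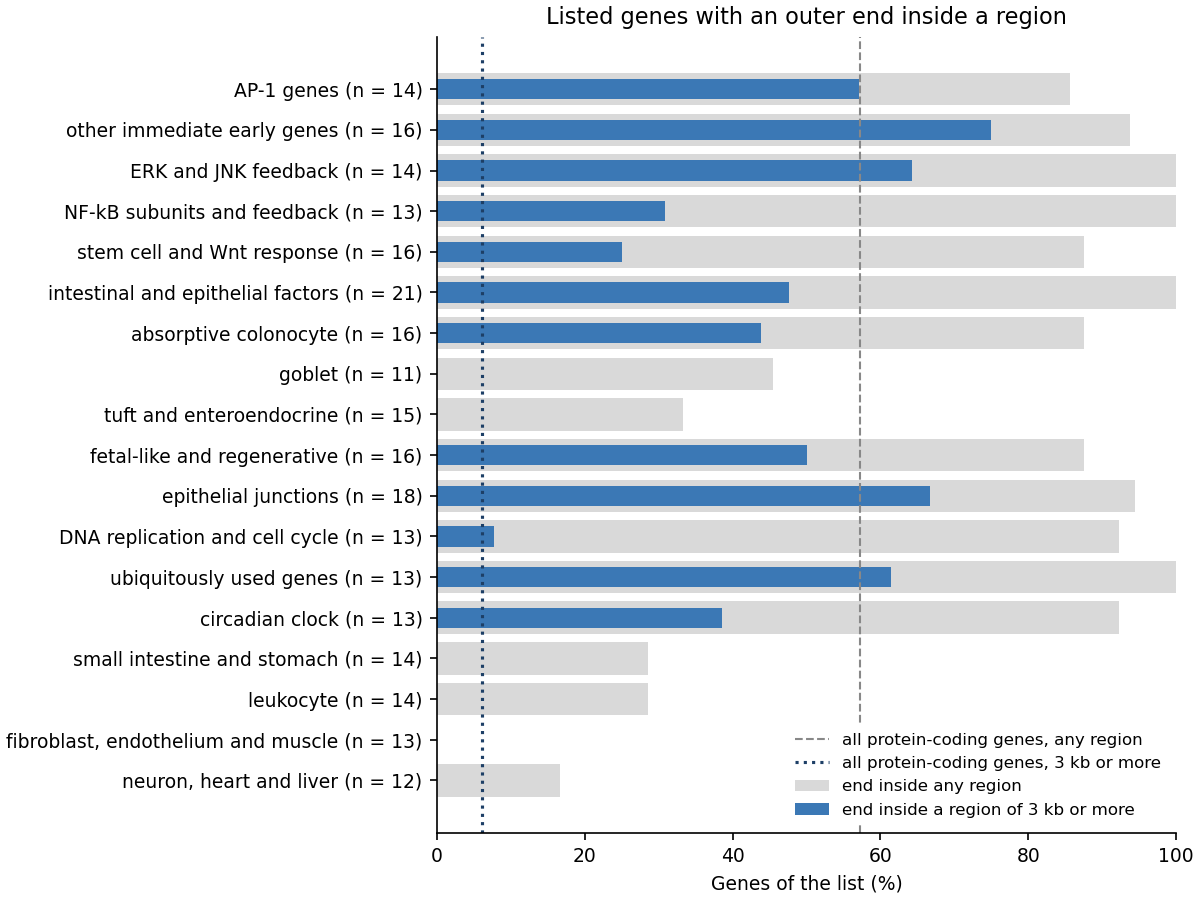
Share of listed genes (x axis, percent) with an outer end inside any region (grey) or inside a region of 3 kb or more (blue), for 18 gene lists with the number of genes found; the dashed and dotted lines mark all protein-coding genes at 57.3% and 6.07%. Blue bars run from 7.69% to 75% in 12 lists and are at 0 in 6 lists.

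Among genes of epithelial structure, 17 of 18 junction genes had an end in a region of any width, beside 57.3% of all protein-coding genes. In a broad region 12 (66.7%) had one, beside 6.07%. The widest were at Cldn7 (8133 bp, 14 summits, 61.3-fold), at F11r, junctional adhesion molecule A (7675 bp, 10, 79.6-fold), and at Cdh1, E-cadherin (7581 bp, 11, 49-fold). Cldn3, Epcam, Cldn4, Dsp, Tjp3, Jup, Dsg2 and Dsc2 were among the rest. Of 21 intestinal and epithelial transcription factors, 10 did, while all 21 had an end in some region. Klf5, a factor of proliferating crypt cells, led (17793 bp, 31 summits, 79.3-fold), then Elf3 (10033 bp, 14, 45.8-fold), an epithelial ETS factor, and Gata6 (8122 bp, 12, 45.2-fold). The region at Elf3 covered only its 3′ end, and its strongest summit lay 4938 bp from the gene. Esrp1, Cdx2, Ovol1, Grhl2, Foxa3 and Foxa2 were among the rest. The region at Cdx2, which fixes hindgut identity, was 4150 bp wide. Of 16 colonocyte genes 14 had an end in some region and 7 in a broad one: Krt8 (15179 bp, 27, 43.2-fold), Krt18 (7556 bp, 18, 31.8-fold), Car1 (7414 bp, 16, 9.85-fold), Car2, Vil1, Krt19 and Cdhr5. The 15179 bp region also covered an end of Krt78. Its 43.2-fold summit lay past the 3′ end of Krt8 and inside Krt78. The start of Krt8, in its separate broad region, reached 59.1-fold.

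Of 16 genes of the fetal-like, regenerating epithelium, 14 had an end in a region of any width, beside 57.3% of all protein-coding genes. In a broad region 8 (50%) had one, beside 6.07%. Hbegf (17308 bp, 33 summits, 53.8-fold), Anxa2 (7803 bp, 7, 52.2-fold) and Areg (7309 bp, 13, 36.1-fold) led, ahead of Ly6a, Krt7, Il1rn, Anxa3 and S100a6. Hbegf and Areg both encode EGF receptor ligands. Of 16 stem cell and Wnt genes 14 had an end in some region and 4 in a broad one: Tcf7l2 (5735 bp, 11, 33.5-fold), Ephb3 (4826 bp, 5, 71.3-fold), Sox9 (3440 bp, 6, 25.4-fold) and Lrig1. Lgr5, the receptor that marks crypt base stem cells, lay at a region of 2183 bp with a fold of 10.2. Of 13 circadian genes 12 had an end in some region and 5 in a broad one: Per2 (7355 bp, 11, 71-fold), Bhlhe40 (6285 bp, 12, 47-fold), Dbp (5134 bp, 6, 49.7-fold), Nr1d1 and Cry2.

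All 13 ubiquitously used genes had an end in a region of any width, beside 57.3% of all protein-coding genes. In a broad region 8 (61.5%, 35.5 to 82.3) had one, beside 6.07%. The AP-1 list had 57.1% and the junction list 66.7%, so a high share was not particular to those lists. Among the 8 were Actb, Hspa8 (4892 bp, 4 summits, 71.4-fold), Gapdh (4417 bp, 6, 47.4-fold), Rpl13a, Eef2, Ubb and Ppia. At Ubb only the 3′ end was covered. Of 13 replication and cell cycle genes, 12 had an end in some region but only Ccnd1 in a broad one (3597 bp, 8 summits, 17-fold). That share, 7.69% (1.37 to 33.3), is near the 6.07% of all genes. Pcna, the polymerase clamp, for example lay at a region of 1612 bp with a fold of 61.6.

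No gene of 6 lists had an end in a broad region, beside 6.07% of all protein-coding genes: goblet (11 genes, 5 in a region of any width), tuft and enteroendocrine (15, 5), small intestine and stomach (14, 4), leukocyte (14, 4), fibroblast, endothelium and muscle (13, 0), and neuron, heart and liver (12, 2). With so few genes a count of 0 is near that share: the upper 95% Wilson bounds ran from 20.4% (tuft and enteroendocrine) to 25.9% (goblet). At any width their shares were 0% to 45.5%, beside 57.3% of all genes. The last 4 lists mark cells and tissues that colonic epithelial cultures should lack. Muc2, the main goblet cell mucin, had no end in a region of any width.

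Away from gene ends, 674 broad regions (38.8%, 36.5 to 41.1) covered none. Of these, 440 overlapped the inside of a protein-coding gene, 57 covered an end of a long noncoding RNA only and 177 did neither. Their strongest summit was a median of 14688 bp from the nearest end, and its fold had a median of 34 against 41.5 in regions with an end. They were close in width (3649 against 3751 bp) and equal in median summit number (6). Ezr was the nearest gene to 8 of them, and Epha2 and Myh9 to 5 each. The widest inside a gene were at Sfi1 (16035 bp), Lmo7 (12731 bp, 24 summits, 62.3-fold) and Muc13 (11942 bp). The widest between genes, apart from those at Neat1 and Malat1, was 10271 bp with 14 summits and its strongest summit 119613 bp from Klf14.

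In 38 regions (2.19%, 1.6 to 2.98) the strongest summit was over 100 kb from any protein-coding gene end, against 3.4% of regions of 2 to 3 kb and 10.3% of those under 2000 bp. The farthest spanned 3705 bp, 452343 bp from Myc, with 6 summits and a strongest fold of 41.9 (chr15:61530658-61534362). Regions of 3112 and 3002 bp lay 314445 and 312127 bp from Klf6, with folds of 34.7 and 48.6. One of 4594 bp lay in Cdkal1, 311292 bp from an end, and one of 3543 bp lay 267162 bp from Klf5. The nearest genes to 4 of these 5 were thus Myc, Klf6 and Klf5, whose own ends were in broad regions too. Nearness is a position only, and which gene such a region acts on was not measured.

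Although the median fold was higher in wider classes, single regions departed from this. The highest fold, 950 at the strongest and 409 at the weakest of 9 summits, lay in 6143 bp over Rn18s-rs5, a pseudogene of ribosomal RNA. The fold is taken against 1 background for the whole genome, so copy number is not divided out. The region in Sfi1 had the highest floor of the 34 regions of 10000 bp or more, with a weakest summit of 10.7-fold. The part of copy number in either value was not tested. The next highest folds were at ends of Bcl10 (93), an adaptor of NF-kB signalling, G3bp1 (91.5), a stress granule protein, Klf13 (87.3) and Uap1 (87), in regions of 3091 to 4387 bp.

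At the low end, 55 broad regions (3.16%, 2.44 to 4.09) stayed below 10-fold at every summit. This share was 4.7% (4.1 to 5.38) in regions of 2 to 3 kb and 76.8% in those under 2000 bp. The 55 broad regions had a median of 8 summits, 1 per 467 bp, while the other 1684 had 6, 1 per 654 bp. Their strongest summit was inside a gene and away from its ends in 58.2% (45 to 70.3), against 32.6%. The lowest, at 4.17-fold, included those at Tuft1 and Epha2, then Cyp2c55 at 4.29 and Ezr at 4.41. The widest of them was at the 3′ end of Tmprss2, 15155 bp with 33 summits and none above 7.3-fold (exact Poisson 95% interval 5.63 to 9.33). Of the 55, 32 thus had their strongest summit inside a gene, 12 between genes and 11 within 1000 bp of an end.

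Other short noncoding genes also lay in broad regions. Of 391 tRNA genes, 46 (11.8%, 8.94 to 15.3) were wholly inside 1 and 247 (63.2%) touched a region of any width. Of 1286 snoRNA genes, 13 (1.01%) were wholly inside a broad region and 132 (10.3%) touched a region of any width. Of 12408 long noncoding RNA genes, 317 (2.55%, 2.29 to 2.85) had an end in a broad region and 2960 (23.9%) in any region. tRNA genes, read by RNA polymerase III, thus had a share above the 6.07% of protein-coding genes, and long noncoding RNA genes one below it. The shares at any width had the same order, with 57.3% of protein-coding genes, so the order is not particular to broad regions. Because tRNA genes occur in near-identical copies, reads could not be assigned with certainty to 1 of them.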

How the data were processed

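Bulk ATAC-seq was made from 4 libraries, 1 per group. Per the submitters' processing notes, the authors used Bowtie2, MACS2 and mm10; no version or setting is given there. The deposited file is 1 peak list for the series with 157922 summit records. Its fold enrichment is a linear ratio given by the authors' peak caller, its −log10 p and −log10 q values are the authors' (at least 3.02 and 1.51), and the deposited score is 10 times −log10 q cut to a whole number, in 100% of records. Each deposited fold equals the pileup plus 1 over 8.63 (751 distinct values, 100% whole within 0.01). The lowest pileup was 17. The depth of a single library is not known. Exact Poisson 95% intervals came from the pileups and cover counting error only.

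Records with the same bounds were joined, and regions of 3000 bp or more were taken on chromosomes 1 to 19. Another 13 on chromosome X and 8 in the stretch of chromosome 1 were left out. Gene bounds came from NCBI genes on GRCm38.p6, the assembly behind mm10, and 262 of 264 listed genes were found on these chromosomes. Strand came from the RefSeq promoter table, which had 16456 of 20661 protein-coding genes (79.6%, or 81.7% on the chromosomes it holds). For a gene with several starts, 1 promoter was used. The CArG box was searched by its consensus.

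Regions and lists were chosen with earlier results of these data known. Named were the 10 widest regions, the 5 with the most summits, highest folds, greatest distances and most gene ends, 3 on each side of the threshold, and every listed gene with a covered end, with full values for AP-1 genes and the 3 widest of each other list. Other genes were named after their values were seen. Some genes that the rule names are not reported here. Nothing was tested, since the list has no value per library. Python 3.11.15, NumPy 2.4.6, pandas 2.3.3, SciPy 1.17.1 and matplotlib 3.10.9 were used, and the overlap and distance steps were tested on simulated data.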

Additional observations from a re-analysis of the deposited data

How the results depend on the processing

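Of 57 alternative values, 35 stayed within 1.5 times of a count or inside the 95% interval of a share or median, and 22 did not. Joining regions within 100 bp and leaving out the region above 100-fold moved none of the 10 results by these limits. Joining did raise the number of broad regions from 1739 to 2089 and the genes with an end covered from 1255 to 1480. With a minimum width of 2500 bp there were 3198 regions with a median width of 3083 bp, 5 summits and 36.9-fold. They covered a whole gene in 2.81% and held ends of 2245 genes. With a minimum of 4000 bp there were 672 regions with a median width of 4954 bp, 8 summits and 40.9-fold. They covered an end in 65% and a whole gene in 8.04%, and held ends of 511 genes. Counting only summits with −log10 q of 10 or more, the median was 5 summits and 99.5% of regions had at least 2.

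The share of regions with the strongest summit within 1000 bp of an end was 42% with a window of 500 bp, 58.7% with 2000 bp, 55.1% with the ends of all annotated genes, 41.9% from the region centre and 46.1% with start sites only (1691 regions). The median distance was 709 bp with the ends of all annotated genes and 1306 bp from the region centre. These values follow from how each alternative is built.

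No paired analysis was possible because the list has no value per library. For the same reason no fit leaves out a library, and width was not compared between colitis and control or T-5224 and DMSO. The cut of 3000 bp falls within a continuous range of widths.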
